A study of Laodelphax striatellus with 6 samples.

Results

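The transcription factors described here are the assembled genes of the small brown planthopper, Laodelphax striatellus, whose protein description names a zinc finger protein or a homeobox, forkhead box, POU domain, paired box, SOX, basic helix-loop-helix, GATA-binding, T-box or heat shock factor protein. Descriptions of ligases, transposons, FOXO, Krueppel homolog, RNA-binding and broad-complex proteins were left out. The rule took 86 of the 59004 assembled genes in the table, and it reads only the description, with no measured value. Poly(A) RNA of whole bodies was sequenced in 3 libraries of insects that received β-asarone, a phenylpropanoid made by plants, and in 3 of untreated control insects. All insects were labelled wild type, and the labels used here give no dose, exposure time, sex, stage or number of insects per library. They do not say whether libraries of a group came from separate insects, so p-values measure only the spread between libraries, which may be technical. The values are TPM (a transcript's share of its library), which are corrected for length and relative to the library total, so levels of different genes can be compared. TPM keeps no sequencing depth, so the reads behind a value are unknown and no counting interval is given.

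Transcription factors bind DNA at particular sequences and set which genes a cell transcribes. C2H2 zinc finger proteins, which read DNA through a row of finger-like domains each held by a zinc ion, are among the most numerous of them in animals. Homeobox, paired box, forkhead and T-box factors pattern segments, limbs, eyes and heart in the insect embryo and keep specialised cells distinct in the adult. Heat shock factor is the activator of chaperone genes when proteins unfold. In RNA of a whole insect, fewer cells of a type and less RNA per cell cannot be told apart.

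The members fell into 6 classes. There were 65 zinc finger, 10 homeobox, 4 forkhead box, 3 paired box, 3 heat shock factor and 1 T-box members, and the other 4 patterns of the rule matched no row. The best hit was the brown planthopper, Nilaparvata lugens, for 57 members, another species for 29, and L. striatellus itself for 0. For 5 members the best hit lay outside the arthropods. The 86 members carried 68 different descriptions, because 12 descriptions stood on more than 1 assembled gene. Zinc finger protein 845 stood on 5 of them and zinc finger protein 425-like, with the planthopper best hit, on 4. Pieces of a single gene or near-identical paralogs can carry the same description and share reads, so such values are uncertain taken apart. The label does not hold for every member: at least 7 carry the name of a protein that is not known to bind DNA itself or that belongs to a mobile element. Those 7 are AN1-type zinc finger proteins 6 and 1-like, ZPR1, heat shock factor-binding protein 1, zinc finger protein 622, the MYND-type protein samB-like and a homeobox-domain protein with a ribonuclease H domain.

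Most members of this list were at low levels, with 56 of the 86 under 1 TPM on average. The 86 members together summed to 192, 154 and 139 TPM in asarone replicates 1, 2 and 3, against 170.5, 114 and 169 TPM in control replicates 1, 2 and 3. Control replicate 2 was the lowest library and asarone replicate 1 the highest, and the groups overlapped. The mean of this sum was 162 ± 27.2 TPM in asarone and 151 ± 32.3 TPM in control libraries (SD, n = 3 each). The minimum for a test, 1 TPM on average across libraries, was reached by 30 members (34.9%), against 42.1% of all assembled genes and 55.7% of those with a description. The median level of the 30 was 2.52 TPM, against 2.86 TPM over all 24816 assembled genes tested. A mean of at least 5 TPM was reached by 8 members, and the highest was 20.3 TPM. Each library had a value above 0 for 76 to 81 members. In asarone replicates 1, 2 and 3 these were 80, 77 and 76 members, and in control replicates 1, 2 and 3 they were 80, 78 and 81.

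**Figure D1:**
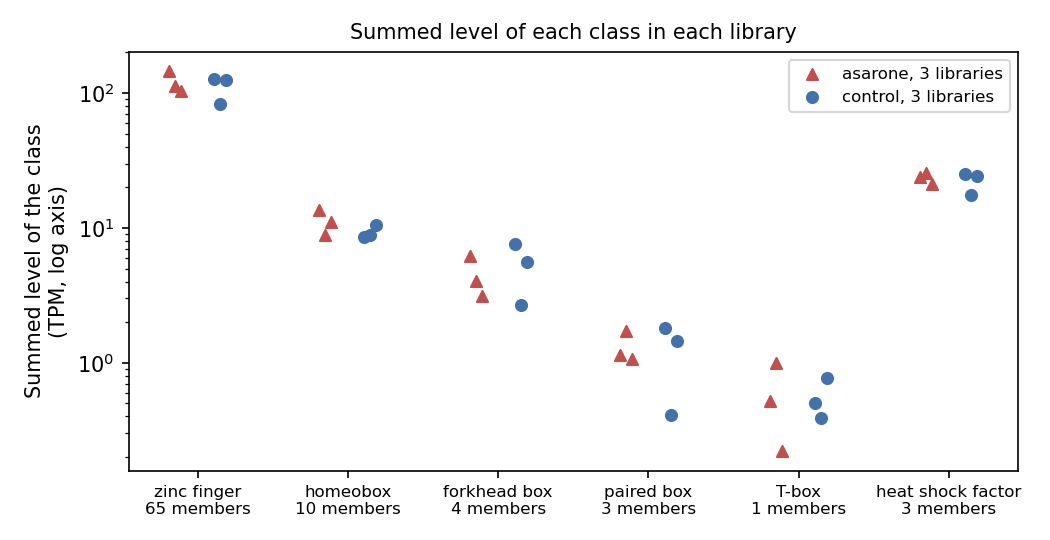
Summed level of each class (TPM, log axis) in each library, with asarone libraries as triangles and control libraries as circles. Zinc finger members held 103 to 147 TPM in asarone and 83.6 to 127 TPM in control libraries, and in no class did the groups stand apart.

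The zinc finger class held most of this RNA, with 121 ± 23.0 TPM in asarone and 112 ± 24.7 TPM in control libraries (SD, n = 3 each). Homeobox members summed to 11.1 ± 2.40 TPM in asarone and 9.27 ± 1.01 TPM in control libraries. The heat shock factor class stood at 23.4 ± 2.20 TPM in asarone and 22.4 ± 4.14 TPM in control libraries, most of it from heat shock factor-binding protein 1. Forkhead members summed to 4.47 ± 1.58 TPM in asarone and 5.26 ± 2.45 TPM in control libraries. Paired box members summed to 1.32 ± 0.360 TPM in asarone and 1.22 ± 0.723 TPM in control libraries. These sums are plotted for each library in the plot of summed levels by class, where asarone and control values overlap in all 6 classes.

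Treated and control insects were compared to ask which of these factors differ under β-asarone. None of the 30 members tested passed the threshold, a Benjamini-Hochberg adjusted p under 0.05 over all assembled genes tested, in a limma fit to log2(TPM + 1). Over all assembled genes 0.00403% passed. The smallest adjusted p among the members was 0.695 (limma), for zinc finger protein 771. At an unadjusted limma p under 0.05 there were 2 members, 1 with a level higher in asarone (all genes tested: 1.99%) and 1 lower (1.47%). Asarone and control values did not overlap, with asarone higher, for 1 of the 30 (all genes tested: 4.53%), and with asarone lower for 2 of the 30 (4.14%), in all 3 of 30 (8.66%). The log2 change was above 0 for 20 and below 0 for 10, and of all genes tested 62.8% were above and 37.2% below 0. Its median was 0.14 over the members and 0.08 over all genes tested. Without control replicate 2, the lowest library for most members, the split of the same 30 was 15 above and 15 below 0. That of all genes tested was 10648 above and 14168 below. For 28 of the 30 the 95% limma interval held 0, and for 23 it lay between -1 and 1 on this log2 scale. The interval had a median width of 1.20. That of the other 7 members reached past -1 or 1, a 2-fold change of TPM + 1. At low levels a 2-fold change of TPM is less than 1 on this scale, so an interval between -1 and 1 can still hold one.

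**Figure D2:**
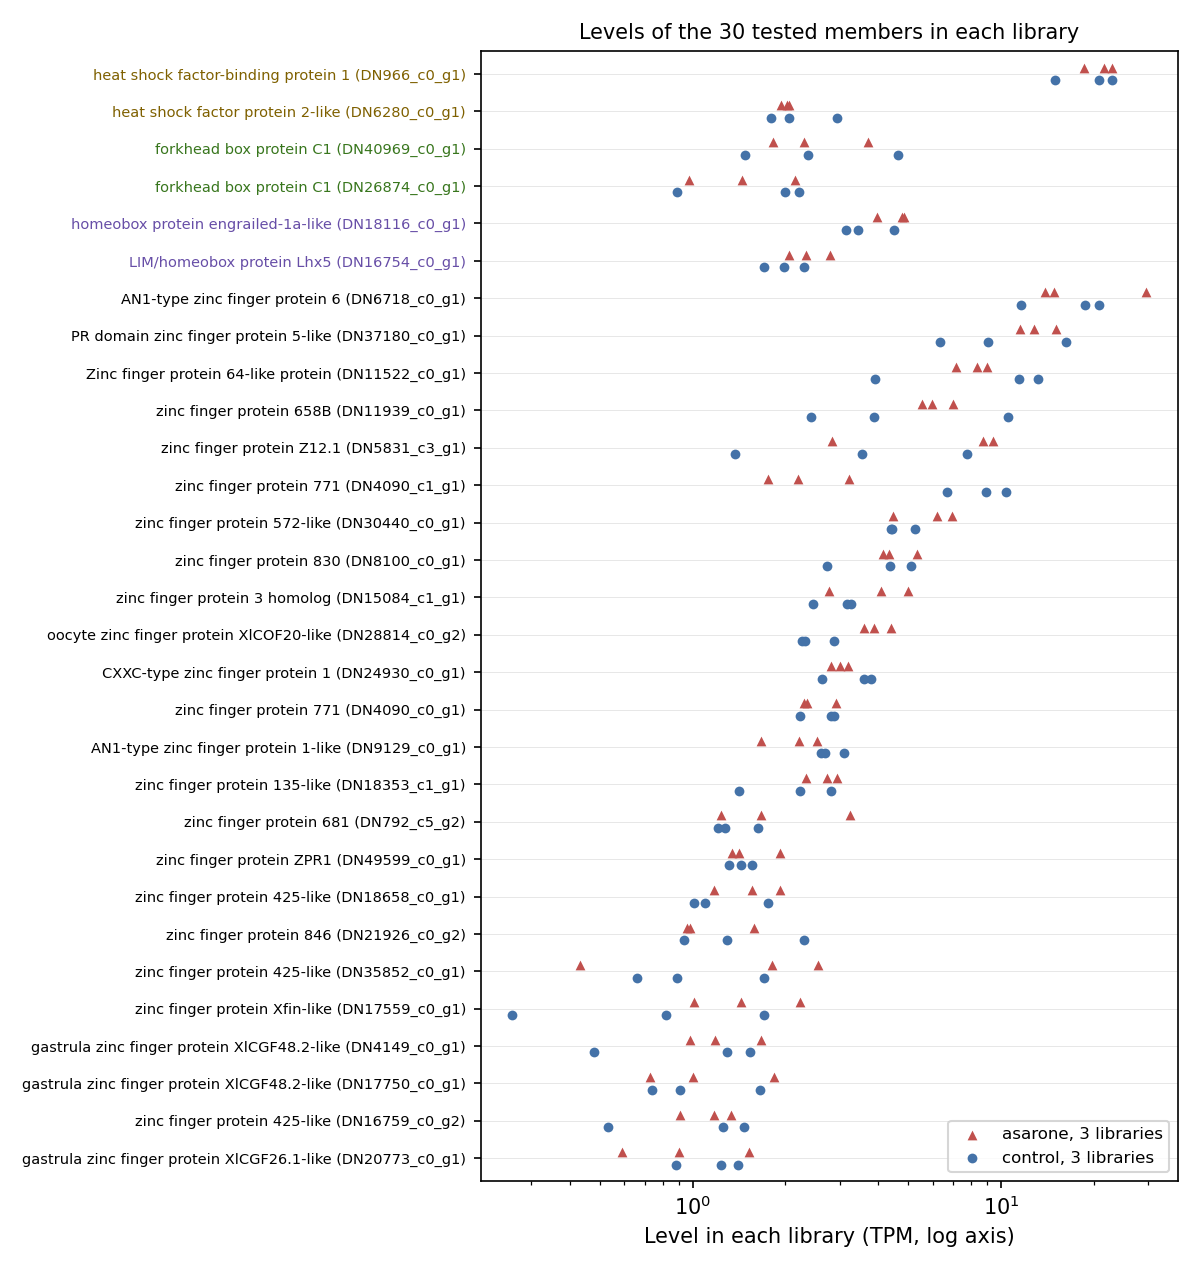
Level of the 30 tested members in each library (TPM, log axis), with the 3 asarone libraries as triangles above the 3 control libraries as circles on each line. The colours of the names mark the heat shock factor, forkhead, homeobox and zinc finger classes from top to bottom. Zinc finger protein 771 (DN4090_c1_g1) is at 1.75 to 3.22 TPM in asarone and 6.70 to 10.4 TPM in control libraries, and most other lines overlap.

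Among heat shock regulators, RNA of the binding protein stood above that of either assembled gene described as heat shock factor. Whether those assembled genes hold all of this insect's heat shock factor RNA was not tested. Heat shock factor-binding protein 1 (TRINITY_DN966_c0_g1), a small coiled-coil protein that restrains heat shock factor in mammals and nematodes, stood at 21.6, 22.9 and 18.6 TPM in asarone replicates 1, 2 and 3, against 22.9, 15.0 and 20.7 TPM in control replicates 1, 2 and 3. The groups overlapped, with control replicate 2 lowest. Its log2 change was 0.12 (SE 0.19), and it was -0.05 without control replicate 2. Heat shock factor protein 2-like (TRINITY_DN6280_c0_g1), with a flour beetle as best hit, stood at 1.93, 2.06 and 2.03 TPM in asarone replicates 1, 2 and 3, against 1.80, 2.06 and 2.94 TPM in control replicates 1, 2 and 3. The asarone values lay inside the control range, and the log2 change was -0.10 (SE 0.19). Heat shock factor protein 1-like (TRINITY_DN39410_c0_g2), with a psyllid as best hit, was below the minimum for a test. It stood at 0.24, 0.41 and 0.33 TPM in asarone replicates 1, 2 and 3, against 0.51, 0.61 and 0.75 TPM in control replicates 1, 2 and 3. Each asarone value was under each control value. The depth behind such low values is unknown, and this member was chosen after its values were seen.

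Homeobox factors, which carry a helix-turn-helix DNA-binding homeodomain, had 2 of 10 members at a level that could be tested. A homologue of engrailed-1a (TRINITY_DN18116_c0_g1), whose Drosophila relative marks the posterior part of each segment, stood at 4.83, 3.95 and 4.77 TPM in asarone replicates 1, 2 and 3, against 3.45, 3.15 and 4.50 TPM in control replicates 1, 2 and 3. Asarone replicates 1 and 3 were above every control library and asarone replicate 2 was not, and the log2 change was 0.24 (SE 0.18). LIM/homeobox protein Lhx5 (TRINITY_DN16754_c0_g1), which in vertebrates acts in developing brain, stood at 2.33, 2.06 and 2.79 TPM in asarone replicates 1, 2 and 3, against 1.98, 1.71 and 2.29 TPM in control replicates 1, 2 and 3. The groups overlapped and the log2 change was 0.18 (SE 0.17). The other 8 had means of 0.307 to 0.888 TPM. They include homologues of Hox-C9, a segment identity factor, of the retinal homeobox protein Rx-A, of Lhx3, B-H1 and Nkx-6.2, and of H2.0 on 2 assembled genes, and the last is the ribonuclease H domain protein. Nkx-6.2 (TRINITY_DN13904_c0_g2) stood at 1.73 TPM in asarone replicate 1 and 0.82 TPM in asarone replicate 2, and was listed at 0 in asarone replicate 3 and in the 3 control libraries. B-H1 (TRINITY_DN27759_c0_g1) showed the other pattern, listed at 0 in all 3 asarone libraries and in control replicate 1, and at 0.91 and 1.27 TPM in control replicates 2 and 3. Neither pattern separates the groups, since a 0 stands in both.

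Forkhead factors, named for the fork head gene of Drosophila and built on a winged-helix domain, had 2 of 4 members tested, and both are described as forkhead box protein C1, a mesoderm factor in vertebrates. TRINITY_DN40969_c0_g1 stood at 3.70, 2.30 and 1.82 TPM in asarone replicates 1, 2 and 3, against 4.64, 1.48 and 2.36 TPM in control replicates 1, 2 and 3. TRINITY_DN26874_c0_g1 stood at 2.14, 1.45 and 0.97 TPM in asarone replicates 1, 2 and 3, against 2.22, 0.89 and 1.99 TPM in control replicates 1, 2 and 3. In both, replicate 1 was the highest library of its group and control replicate 2 was lowest of all. The level of TRINITY_DN40969_c0_g1 divided by that of TRINITY_DN26874_c0_g1 was 1.73 ± 0.145 in asarone and 1.65 ± 0.452 in control libraries (SD, n = 3 each). Their log2 changes were -0.03 (SE 0.35) and -0.09 (SE 0.29), with the groups overlapping. Forkhead box protein J1-B-like (TRINITY_DN43306_c0_g3), whose vertebrate relative drives motile cilia, was listed at 0 in 5 libraries and at 0.59 TPM in control replicate 3. Forkhead box protein I1 (TRINITY_DN6259_c0_g1) had a mean of 0.343 TPM in asarone and 0.540 TPM in control libraries.

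Paired box and T-box factors were all below the minimum. Pax-6, the eye selector factor called eyeless in Drosophila, stood on 2 assembled genes. TRINITY_DN25976_c0_g1 was at 0.58, 0.55 and 0.67 TPM in asarone replicates 1, 2 and 3, against 0.38, 0.16 and 0.48 TPM in control replicates 1, 2 and 3. TRINITY_DN25976_c0_g3 was at 0, 0.36 and 0.16 TPM in asarone replicates 1, 2 and 3, against 0.72, 0.14 and 0.55 TPM in control replicates 1, 2 and 3. The values of TRINITY_DN25976_c0_g1 did not overlap between groups, while those of TRINITY_DN25976_c0_g3 did, with the means in the opposite order. Pax-5 (TRINITY_DN36892_c0_g1) averaged 0.543 TPM in asarone and 0.410 TPM in control libraries. The T-box factor TBX20 (TRINITY_DN10218_c1_g2), of heart development in vertebrates, averaged 0.580 ± 0.393 TPM in asarone and 0.553 ± 0.195 TPM in control libraries (SD, n = 3 each).

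In the zinc finger class, 17 of the 24 members tested had a log2 change above 0 and 7 below 0, with a median of 0.15, and none passed the threshold. Of all genes tested 62.8% were above 0, and without control replicate 2 the class split into 13 above and 11 below 0. The 5 most abundant are given first. AN1-type zinc finger protein 6 (TRINITY_DN6718_c0_g1), a ubiquitin-binding protein in mammals, stood at 29.5, 14.8 and 13.9 TPM in asarone replicates 1, 2 and 3, against 20.8, 11.6 and 18.7 TPM in control replicates 1, 2 and 3. Asarone replicate 1 alone stood above the control range, and the log2 change of 0.14 (SE 0.35) was -0.19 without that library. PR domain zinc finger protein 5-like (TRINITY_DN37180_c0_g1), whose mammalian relative represses transcription, stood at 15.0, 12.8 and 11.6 TPM in asarone replicates 1, 2 and 3, against 9.07, 6.36 and 16.3 TPM in control replicates 1, 2 and 3. Control libraries held both the highest and the lowest value, and the log2 change was 0.37 (SE 0.32). Without control replicate 2 it was 0.09. Zinc finger protein 64-like (TRINITY_DN11522_c0_g1), with a spider as best hit, stood at 8.98, 7.12 and 8.37 TPM in asarone replicates 1, 2 and 3, against 13.2, 3.89 and 11.4 TPM in control replicates 1, 2 and 3. The 3 asarone values lay within the control range, with a log2 change of -0.06 (SE 0.41).

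Zinc finger protein 658B (TRINITY_DN11939_c0_g1) stood at 6.98, 5.98 and 5.53 TPM in asarone replicates 1, 2 and 3, against 10.5, 3.88 and 2.42 TPM in control replicates 1, 2 and 3. Again the asarone values lay within the control range, and the log2 change was 0.31 (SE 0.44). Zinc finger protein Z12.1 (TRINITY_DN5831_c3_g1), whose best hit is a sea urchin, was among the most abundant and also had the largest log2 change above 0 of the 30, at 0.68 (SE 0.58). It stood at 9.44, 8.71 and 2.83 TPM in asarone replicates 1, 2 and 3, against 3.54, 1.37 and 7.73 TPM in control replicates 1, 2 and 3. Asarone replicate 3 and control replicate 3 each stood apart from the other 2 libraries of their group, in opposite directions. Its log2 change was 0.21 without control replicate 2, less than the 0.47 of the XlCOF20-like gene (TRINITY_DN28814_c0_g2) without that library, and 1.15 without either group's replicate 3. The adjusted p of these 5 members was 0.98 to 0.99 (limma).

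Zinc finger protein 771 and the XlCOF20-like gene had the smallest unadjusted p of the members, in opposite directions. The assembled gene TRINITY_DN4090_c1_g1, described as zinc finger protein 771 isoform X1 after the brown planthopper, stood at 3.22, 2.19 and 1.75 TPM in asarone replicates 1, 2 and 3, against 6.70, 10.4 and 8.94 TPM in control replicates 1, 2 and 3. All asarone values were under all control values, and control replicate 2, low for most members, was here the highest. The mean TPM in asarone libraries was 0.275 of that in control libraries. The log2 change of TPM + 1, which understates that of TPM at low levels, was -1.52 (95% limma interval -2.09 to -0.95). The unadjusted p was 0.000535 and the adjusted p 0.695 (limma). Over the alternatives of the fit its log2 change was -1.84 to -1.38 and the adjusted p 0.34 to 0.988 (limma).

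The same description stood on TRINITY_DN4090_c0_g1, an assembled gene from another component of the same assembly cluster. It stood at 2.91, 2.29 and 2.35 TPM in asarone replicates 1, 2 and 3, against 2.88, 2.23 and 2.80 TPM in control replicates 1, 2 and 3. Here the groups overlapped, and the log2 change was -0.05 (95% limma interval -0.45 to 0.36). The level of TRINITY_DN4090_c1_g1 divided by that of TRINITY_DN4090_c0_g1 was 1.11, 0.956 and 0.745 in asarone replicates 1, 2 and 3, against 2.33, 4.65 and 3.19 in control replicates 1, 2 and 3. The sum of both was 4.90 ± 1.08 TPM in asarone and 11.3 ± 1.56 TPM in control libraries (SD, n = 3 each). This pair was set side by side after its values were seen, so its ratio is given with no test. Whether the pair are paralogs, isoforms or pieces of a single gene was not tested.

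**Figure D3:**
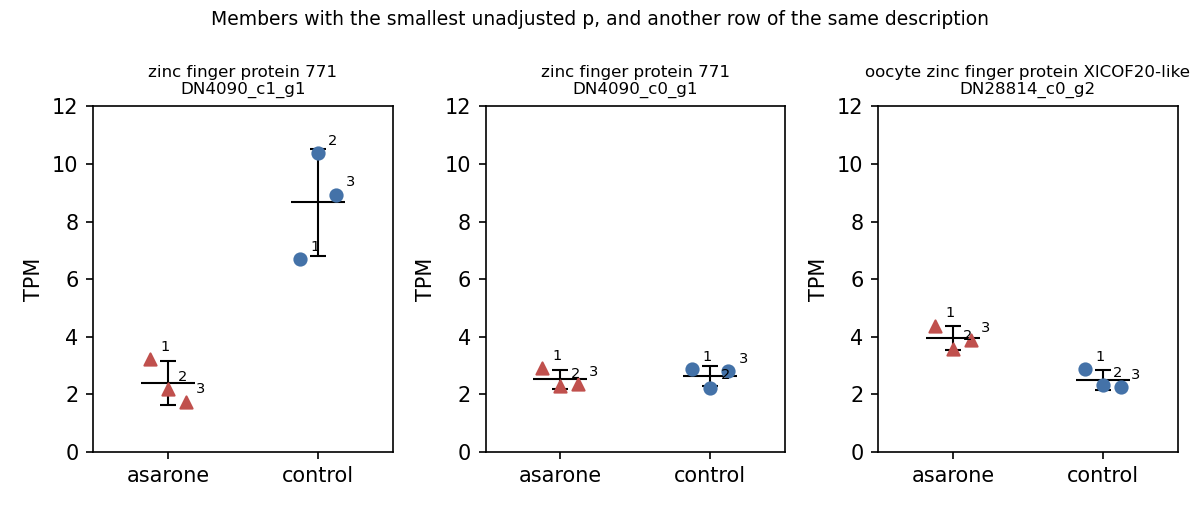
TPM in asarone (triangles, left) and control libraries (circles, right), with replicate numbers, and the mean with its SD as bars (n = 3 each). Both assembled genes described as zinc finger protein 771 and the XlCOF20-like gene are shown. The asarone and control values are apart for DN4090_c1_g1 (1.75 to 3.22 and 6.70 to 10.4 TPM) and for XlCOF20-like (3.59 to 4.39 and 2.26 to 2.88 TPM), and overlap for DN4090_c0_g1.

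The homologue of XlCOF20 (TRINITY_DN28814_c0_g2), a zinc finger protein named from Xenopus oocytes, stood at 4.39, 3.59 and 3.88 TPM in asarone replicates 1, 2 and 3, against 2.88, 2.32 and 2.26 TPM in control replicates 1, 2 and 3. Every asarone value was above every control value. The means were 3.95 ± 0.405 TPM in asarone and 2.49 ± 0.342 TPM in control libraries (SD, n = 3 each), a ratio of 1.59. The log2 change of TPM + 1 was 0.51 (95% limma interval 0.12 to 0.90). The unadjusted p was 0.0183 and the adjusted p 0.98 (limma). Its log2 change was 0.47 without control replicate 2, and 0.42 to 0.65 over the alternatives of the fit.

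The other members higher in asarone with the smallest unadjusted p had overlapping groups. Zinc finger protein 3 homolog (TRINITY_DN15084_c1_g1) stood at 5.00, 4.07 and 2.76 TPM in asarone replicates 1, 2 and 3, against 3.17, 2.45 and 3.27 TPM in control replicates 1, 2 and 3. Zinc finger protein 572-like (TRINITY_DN30440_c0_g1), with a damselfly as best hit, stood at 6.92, 4.47 and 6.20 TPM in asarone replicates 1, 2 and 3, against 5.27, 4.41 and 4.43 TPM in control replicates 1, 2 and 3. For both, asarone replicate 1 was the highest library and a single asarone library lay within the control range. Their log2 changes were 0.30 (SE 0.22) and 0.25 (SE 0.19). The Xfin-like gene (TRINITY_DN17559_c0_g1), named for a Xenopus protein with a long array of fingers, stood at 2.23, 1.01 and 1.43 TPM in asarone replicates 1, 2 and 3, against 1.71, 0.26 and 0.82 TPM in control replicates 1, 2 and 3. Its log2 change was 0.45 (SE 0.35), and 0.18 without control replicate 2, where it was lowest.

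On the lower side, AN1-type zinc finger protein 1-like (TRINITY_DN9129_c0_g1), whose human relative brings the proteasome to stress granules, stood at 1.66, 2.54 and 2.22 TPM in asarone replicates 1, 2 and 3, against 2.61, 2.68 and 3.09 TPM in control replicates 1, 2 and 3. The groups did not overlap, by the 0.07 TPM between asarone replicate 2 and control replicate 1, and the log2 change was -0.28 (SE 0.18). Its best hit is a sea star. CXXC-type zinc finger protein 1 (TRINITY_DN24930_c0_g1), a subunit of the complex that methylates histone H3 at active promoters, stood at 3.00, 3.19 and 2.82 TPM in asarone replicates 1, 2 and 3, against 3.59, 2.63 and 3.79 TPM in control replicates 1, 2 and 3. Control libraries held the extremes and the log2 change was -0.11 (SE 0.17). Zinc finger protein 846 (TRINITY_DN21926_c0_g2) stood at 0.96, 1.58 and 0.98 TPM in asarone replicates 1, 2 and 3, against 2.29, 0.94 and 1.29 TPM in control replicates 1, 2 and 3. The XlCGF26.1-like gene (TRINITY_DN20773_c0_g1) stood at 0.90, 1.52 and 0.59 TPM in asarone replicates 1, 2 and 3, against 1.40, 1.24 and 0.88 TPM in control replicates 1, 2 and 3. Both overlapped between groups, with log2 changes of -0.18 (SE 0.26) and -0.14 (SE 0.27).

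**Figure D4:**
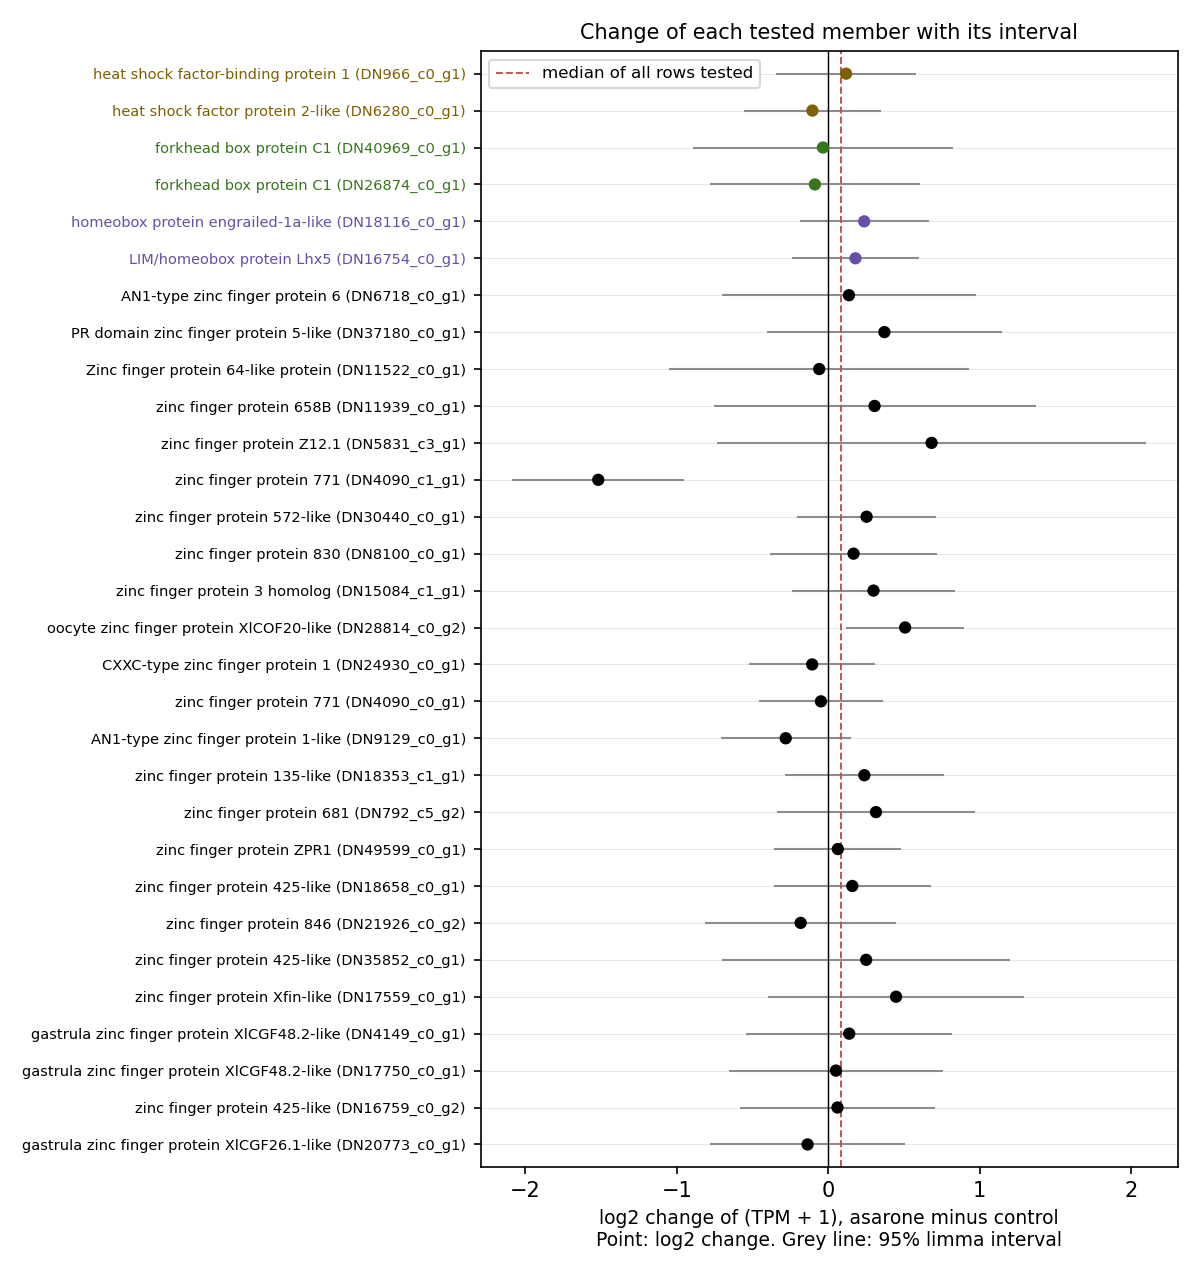
Log2 change of (TPM + 1), asarone minus control, for the 30 tested members, with the 95% limma interval as a grey line. The dashed line is the median of all assembled genes tested, 0.08. The intervals of zinc finger protein 771 (DN4090_c1_g1, -2.09 to -0.95) and of XlCOF20-like (0.12 to 0.90) do not hold 0, and the other 28 do.

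The other 10 zinc finger members tested had means of 1.11 to 4.34 TPM and log2 changes of -0.05 to 0.32, of which 9 were above 0 and 1 below. This split follows from the naming rule, which had already taken the rest of the class below 0. The lower one is TRINITY_DN4090_c0_g1, the assembled gene described above with zinc finger protein 771. They include zinc finger protein 830, a splicing and DNA repair factor in humans, and ZPR1, which binds a translation elongation factor. Zinc finger protein 425-like stood on 4 assembled genes with the planthopper best hit, whose sum was 3.71 ± 1.09 TPM in asarone and 2.95 ± 0.603 TPM in control libraries (SD, n = 3 each). Leaving out the 4 tested members with the name of a protein that is not known to bind DNA, 17 of the other 26 had a log2 change above 0 and 9 below, with a median of 0.16.

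The 56 members below 1 TPM had a median level of 0.472 TPM and the highest mean was 0.917 TPM. In 40 of them every library had a value above 0, in 16 at least 1 library was listed at 0, and zinc finger protein 436-like was listed at 0 in all 6. Asarone values were above all control values for 2 of the 55 with any value (rows below the minimum with any value: 2.93%) and under them for 4 (5.01%). Of these 6, the heat shock factor 1-like and Pax-6 genes are given above. Zinc finger protein 664-like (TRINITY_DN8795_c1_g1) was at 1.04, 0.94 and 0.62 TPM in asarone replicates 1, 2 and 3, against 0.39, 0.21 and 0.45 TPM in control replicates 1, 2 and 3. The others, with asarone lower, were GLIS2-like, zinc finger protein 264 (TRINITY_DN28912_c0_g1) and the ribonuclease H domain protein. TRINITY_DN28912_c0_g1 was listed at 0 in all 3 asarone libraries and at 0.25, 0.10 and 0.38 TPM in control replicates 1, 2 and 3. The same description stood on TRINITY_DN31258_c0_g2, at 0.21, 0.26 and 0.37 TPM in asarone replicates 1, 2 and 3. Its control values were 0.27, 0.34 and 0.37 TPM in replicates 1, 2 and 3, so the groups overlapped. Zinc finger protein 845, on 5 assembled genes, summed to 1.85 ± 0.911 TPM in asarone and 2.17 ± 1.21 TPM in control libraries (SD, n = 3 each). Developmental factors known from Drosophila were also in this range. Chinmo (TRINITY_DN47075_c0_g2), which holds neural stem cells and tissues in an early state, averaged 0.317 TPM in asarone and 0.313 TPM in control libraries. Rotund (TRINITY_DN29637_c0_g1), a leg segment factor, averaged 0.577 TPM in asarone and 0.520 TPM in control libraries. PR domain zinc finger protein 1 (TRINITY_DN13883_c0_g1), called Blimp-1 in Drosophila, where ecdysone induces it, averaged 0.710 TPM in asarone and 0.580 TPM in control libraries.

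The members' deviations in each library mostly followed those of all genes tested. Control replicate 2 was the lowest library for 19 of the 30 tested members and asarone replicate 1 the highest for 13. The median deviation of the members from their own mean over the 6 libraries was 0.25, 0.02 and -0.10 on the log2(TPM + 1) scale in asarone replicates 1, 2 and 3, against 0.11, -0.30 and 0.05 in control replicates 1, 2 and 3. Over all genes tested it was 0.13, 0.00 and -0.01 in asarone replicates 1, 2 and 3, against 0.12, -0.27 and 0.04 in control replicates 1, 2 and 3. Control replicate 2 was thus low at the median gene, being lowest for 46.6% of all genes tested. TPM sum to the same total in each library, so this is a difference in shares and not in total level. The spread of the members between libraries of a group, a median SD of 0.28 on the log2(TPM + 1) scale, was near that of all genes tested, 0.31.

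**Figure D5:**
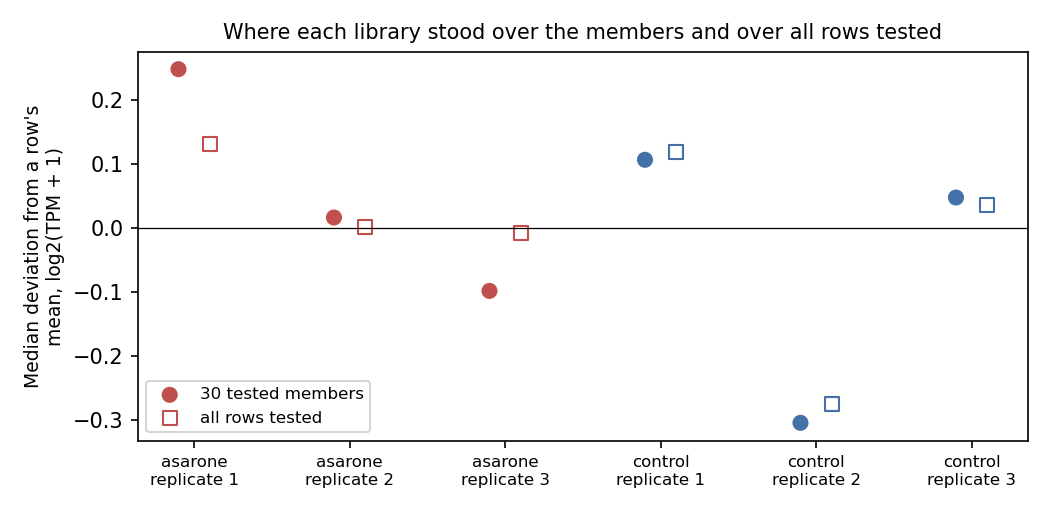
Median deviation of a gene from its own mean over the 6 libraries, on the log2(TPM + 1) scale, for the 30 tested members (filled circles) and all genes tested (open squares), with asarone libraries in red at the left and control libraries in blue at the right. Control replicate 2 is lowest in both, at -0.30 and -0.27, and asarone replicate 1 is highest over the members, at 0.25.

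Other genes of transcription control, taken as lists of descriptions, also held no gene past the threshold. Of 13 tested genes of other sequence-specific factors, such as dorsal, Sp and FOXO, none passed, 5 had a log2 change above 0 and 8 below, and the median was -0.07. A fragment of dorsal (TRINITY_DN14113_c0_g1), an NF-kappa-B factor of insect immunity and embryonic axis, had the smallest unadjusted p among those higher in asarone. It averaged 1.96 ± 0.317 TPM in asarone and 1.08 ± 0.0985 TPM in control libraries (SD, n = 3 each; log2 change 0.50, SE 0.17, limma adjusted p = 0.98). On the lower side it was basic-leucine zipper factor J (TRINITY_DN3726_c0_g1), at 13.5 ± 1.72 TPM in asarone and 16.0 ± 3.49 TPM in control libraries. Of 12 tested co-regulators, mostly Mediator subunits that bridge factors and RNA polymerase, none passed, 5 were above and 7 below 0, and the median was -0.03. Mediator subunit 7 (TRINITY_DN25931_c0_g1) averaged 1.13 ± 0.102 TPM in asarone and 1.65 ± 0.191 TPM in control libraries. The smallest unadjusted p above 0 was that of nuclear receptor coactivator 2-like (TRINITY_DN52235_c0_g1), which was at 20.0 TPM in asarone replicate 2 and listed at 0 in the other 5 libraries.

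Markers of muscle, nerve, sperm and gut were detected, as the whole-body label implies, but the list for yolk and fat body took no gene. Muscle markers summed to 1930 to 2947 TPM in asarone and 2014 to 2878 TPM in control libraries, and neural markers to 8.98 to 13.0 TPM in asarone and 5.72 to 20.8 TPM in control libraries. Sperm and axoneme markers summed to 14.7 to 26.5 TPM in asarone and 10.5 to 30.8 TPM in control libraries. Gut markers summed to 91.1 to 94.1 TPM in asarone and 91.4 to 92.6 TPM in control libraries. The yolk and fat body list, as set here, took 0 rows and so gives no reading of those tissues. Whether such transcripts are present was not tested. The muscle, neural, sperm and gut sums each overlapped between groups. None of these markers passed the threshold. The log2 change was above 0 for 7 and below 0 for 12 of the 19 muscle markers tested, with a median of -0.11. All 7 sperm and axoneme markers tested were above 0, with a median of 0.24. For comparison, 62.8% of all genes tested were above 0, with a median of 0.08. Of the neural markers tested 3 were above and 1 below 0 (median 0.07), and both gut markers tested were above 0 (median 0.16). The part of these markers in the members' values was not tested.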

How the data were processed

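Whole-body poly(A) RNA was sequenced in 3 asarone and 3 control libraries, grouped by title. Tools named in the submitters' processing notes, with no roles, are StringTie 1.3.4d, HISAT2 2.0.4, cutadapt 1.9, DESeq2 and edgeR. The genome build is not given in the sources used here. In the authors' deposited table, named for FPKM, library columns each sum to 999999 to 1000002, so the deposited values were read as TPM. TPM is relative to the library total, so a change in abundant transcripts shifts all others. The authors' group means were not used. In any pair of libraries, 0.317% to 2.11% of rows with a value were identical, and each library was kept as a replicate.

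Assembled genes that averaged 1 TPM or more (24816) were fitted with limma 3.58.1 in R 4.3.3 (trend and robust, two-sided) on log2(TPM + 1). This scale understates changes of low genes. P-values were adjusted over all genes tested. The procedure was tested on simulated data.

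The members and lists were chosen with earlier results of these data known. Each member went to 1 class. Named genes were all tested members of classes with 5 or fewer, and of the zinc finger class the 5 most abundant and the 5 higher and 5 lower with the smallest unadjusted p. List patterns were trimmed of false matches after the descriptions were seen, and the members not known to bind DNA were listed after values were seen. The alternatives changed the pseudocount (0.1 and 0.5), the filter (none, or 5 TPM on average), the scaling (median-of-ratios, trimmed-mean and quantile), and the fit and rows: a replicate block, limma without trend and robust, planthopper best hits only, leaving out genes found in 1 library only (2 TPM or more there, and elsewhere no more than 5% of it), and leaving out each library.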

Additional observations from a re-analysis of the deposited data

Results flagged for a closer look

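Members whose mean was under 1 TPM were outside the test, and 2 of them had a value in every asarone library above the highest control library. Zinc finger protein 664-like (TRINITY_DN8795_c1_g1) averaged 0.867 TPM in asarone libraries, against 0.350 TPM in control libraries. The Pax-6-like gene TRINITY_DN25976_c0_g1 averaged 0.600 TPM in asarone libraries, against 0.340 TPM in control libraries. The other Pax-6-like gene, TRINITY_DN25976_c0_g3, overlapped between groups. Its means were in the opposite order, at 0.173 TPM in asarone and 0.470 TPM in control libraries. Of all rows below the minimum with any value, 2.93% had every asarone value above every control value, and the members' 2 of 55 lie near that share. The opposite pattern, with every asarone value under every control value, was seen in 4 of the 55 (all such rows: 5.01%).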

How the results depend on the processing

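Across the 17 alternatives none of the members passed the threshold, and the smallest adjusted p of a member was 0.34 (limma, no filter). The number of all genes past the threshold was 1. It became 0 without the filter, with 0.1 as pseudocount, when 5 TPM on average was required, under median-of-ratios scaling, trimmed-mean scaling and quantile normalization, with the replicate block, with planthopper best hits only, and without each single library (0 to 0). The replicate block left 0 members past the threshold, as without it. Deviations of same-numbered libraries from their group means correlated at 0.16, 0.08 and -0.035 for replicates 1, 2 and 3. Asarone replicates 1 and 2 each correlated best with the control library of the same number, and asarone replicate 3 with control replicate 2 (0.06). All of these correlations were small, and the numbers were not taken as pairs. The median log2 change of the members was 0.06, 0.07 and 0.06 under the 3 scalings, and 0.06 to 0.23 without each library. The share of members above 0 was 66.7%. It was 56.7% to 63.3% under the scalings, 56.5% with no filter, 51.6% without control replicate 2 and 80.6% without control replicate 1. The median of all genes tested was 0.08, and 0.00 to 0.02 under the scalings. Of 320 recomputed log2 changes of the 20 named members, 304 kept their direction and none passed. The other 16 turned on leaving out a library. Ranges were -0.54 to 0.23 for zinc finger protein 64-like, -0.072 to 0.81 for 658B, -0.31 to 0.017 for XlCGF26.1-like, -0.35 to 0.032 for 846, -0.31 to 0.29 and -0.33 to 0.077 for the forkhead C1 genes, -0.21 to 0.038 for heat shock factor 2-like, -0.19 to 0.32 for AN1-type 6 and -0.052 to 0.24 for heat shock factor-binding protein 1. The cause was not tested. Named members under 5 TPM were not fitted with the stricter filter, and those with other best hits not with planthopper hits only. TPM keeps no depth, so values under 1 TPM have an unknown error.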
